A study of Mus musculus with 16 samples.

Results

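S100 proteins are small calcium-binding proteins, and 9 of their genes were followed across lung endothelial cells (ECs), which line the vessels, of young and aged mice with and without bleomycin injury. The members were taken by gene symbol from the 43346 genes of the deposited table, and all 9 were found. They are S100a1, S100a4, S100a6, S100a8, S100a9, S100a10, S100a11, S100a13 and S100a16, and S100a8 and S100a9, which neutrophils express at high levels, were kept apart from the other 7. The 16 libraries came from FVB mice that all carried a GFP reporter driven by the collagen gene Col1a1. Mice were 2 months (young) or 18 months (aged) old, and lungs were taken 30 days after bleomycin, which damages lung tissue and leads to scarring, or PBS was given into the trachea. The groups were Young Sham (PBS, n = 5), Young Bleo (n = 4), Aged Sham (PBS, n = 3) and Aged Bleo (n = 4). Cells were sorted as CD31 positive and as negative for CD45, EpCAM and the collagen reporter, a gate meant to leave out leukocytes, epithelium and collagen-producing cells, and the study did not test purity after sorting. Labels do not say whether a library is 1 mouse or a pool. In the study, the RNA came from lungs also used for chromatin profiling, where each sample was an individual mouse.

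Most S100 proteins work as pairs that change shape when they bind calcium and then grip a target protein. Inside cells, S100A10 pairs with annexin A2 at the membrane, S100A11 with annexin A1, S100A6 with the calcyclin-binding protein Cacybp, and S100A4 with non-muscle myosin. Outside cells, S100A8 and S100A9 form calprotectin, which signals through Tlr4 and through the receptor for advanced glycation end products, Ager.

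All 9 genes lie on chromosome 3 (mm10, positions of the deposited table). S100a1 (90511034 to 90514392, minus strand) and S100a13 (90514435 to 90524581, plus strand) start back to back, with 42 bases between the gene bodies. S100a16 (90537254 to 90543151), S100a4 (90603770 to 90606045), S100a6 (90612894 to 90614414) and S100a8 (90669071 to 90670034) follow on the plus strand, and S100a9 (90692632 to 90695721) lies on the minus strand. S100a11 (93520488 to 93526287) and S100a10 (93555080 to 93564643) sit 2825 kb further on, with 28.8 kb between them. All are annotated as protein coding, and no other gene of the table overlaps any of them.

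Promoter windows are shown for some of the members, which are the back-to-back S100a1, the neighbours S100a4 and S100a6, and the pair S100a8 and S100a9. Each holds 250 bases before and 50 bases after the RefSeq start (GRCm38.p6, the assembly of mm10), printed 5′ to 3′ on the gene's strand. Windows of this kind were found for 8 of the 9 members. Capitals mark matches, on either strand, to any of 5 motifs, and none of the matches in these windows overlap. The TATA box was searched as TATAAA and the GC box as GGGCGG. The AP-1 site was searched as TGANTCA and the C/EBP site as TTNCNNAA. The core of ETS sites was searched as CCGGAA.
S100a1, chr3:90514281-90514580, minus strand: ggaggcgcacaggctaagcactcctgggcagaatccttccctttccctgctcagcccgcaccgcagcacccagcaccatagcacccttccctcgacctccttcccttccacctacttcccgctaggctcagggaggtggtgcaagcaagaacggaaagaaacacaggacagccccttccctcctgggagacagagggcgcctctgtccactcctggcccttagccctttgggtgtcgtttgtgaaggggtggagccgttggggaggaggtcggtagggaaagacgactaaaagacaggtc
S100a4, chr3:90603520-90603819, plus strand: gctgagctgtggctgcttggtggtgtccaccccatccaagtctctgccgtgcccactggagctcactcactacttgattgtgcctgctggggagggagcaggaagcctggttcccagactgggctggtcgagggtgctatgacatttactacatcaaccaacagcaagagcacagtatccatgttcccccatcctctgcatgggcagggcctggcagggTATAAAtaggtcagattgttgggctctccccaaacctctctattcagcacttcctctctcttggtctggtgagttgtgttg
S100a6, chr3:90612644-90612943, plus strand: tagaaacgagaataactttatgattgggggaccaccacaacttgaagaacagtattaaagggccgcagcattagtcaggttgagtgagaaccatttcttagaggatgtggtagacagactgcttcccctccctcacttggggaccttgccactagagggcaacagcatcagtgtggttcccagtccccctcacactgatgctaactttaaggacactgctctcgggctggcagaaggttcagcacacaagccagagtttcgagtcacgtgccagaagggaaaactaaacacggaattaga
S100a8, chr3:90668821-90669120, plus strand: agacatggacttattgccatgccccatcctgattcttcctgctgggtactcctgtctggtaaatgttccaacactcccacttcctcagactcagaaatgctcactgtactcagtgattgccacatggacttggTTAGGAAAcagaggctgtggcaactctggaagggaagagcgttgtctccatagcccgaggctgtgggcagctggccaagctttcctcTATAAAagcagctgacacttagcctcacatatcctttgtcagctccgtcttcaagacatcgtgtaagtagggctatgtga
S100a9, chr3:90695672-90695971, minus strand: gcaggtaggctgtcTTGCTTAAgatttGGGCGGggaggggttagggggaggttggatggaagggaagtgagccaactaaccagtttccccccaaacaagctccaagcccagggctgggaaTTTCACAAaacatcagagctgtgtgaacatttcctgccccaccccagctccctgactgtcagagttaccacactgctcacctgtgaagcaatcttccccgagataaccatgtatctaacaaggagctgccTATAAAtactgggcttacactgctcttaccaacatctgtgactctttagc

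The windows of S100a4 and S100a8 hold a TATAAA 31 and 30 bases upstream of the start, and that of S100a9 holds one at the start itself. The S100a8 window has 1 match to the C/EBP letters and the S100a9 window has 2, beside a GC box. No match to the 5 motifs lies in the S100a1 or S100a6 window, and S100a1 shares 204 bases of its window with S100a13. Over all 32817 promoter windows of the same length, TATAAA was found in 13.6%, the GC box in 35.6%, the C/EBP letters in 40.7%, the AP-1 letters in 7.81% and the ETS core in 14.9%. The printed windows hold neither the AP-1 nor the ETS letters. Of those not printed, the S100a11 window holds the AP-1 letters 136 and 38 bases upstream, beside GC boxes. A window of S100a16 holds the AP-1 letters 192 bases upstream.

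Library totals lay between 20.9 and 71.0 mega-counts. Of the endothelial markers the summed FPKM (fragments per kilobase of gene, scaled to library total, as deposited) was 2360 to 2607 in Young Sham, 1571 to 2041 in Young Bleo, 1434 to 2056 in Aged Bleo and 2068 to 2227 in Aged Sham. Markers of cells outside the gate were present as well. The summed FPKM of 9 monocyte and macrophage markers was 23.1 to 44.2 in Young Sham, 156 to 445 in Young Bleo, 212 to 1575 in Aged Bleo and 53.9 to 187 in Aged Sham. The summed FPKM of 4 mesothelial markers was 0.00405 to 1.18 in Young Sham, 4.96 to 15.3 in Young Bleo, 0.506 to 5.50 in Aged Bleo and 2.72 to 12.4 in Aged Sham. Against Young Sham, DESeq2 called 4 of the 4 higher in Young Bleo (7.57% of genes tested), 3 in Aged Bleo (6.58%) and 3 in Aged Sham (2.24%). Aged Bleo 2 alone overlapped the Young Sham sums, and the part of mesothelial RNA in the S100 values was not tested. The 5 erythroid markers summed to 30.0 to 160 FPKM in Young Sham, 149 to 622 in Young Bleo, 125 to 414 in Aged Bleo and 234 to 495 in Aged Sham. The 7 pericyte and smooth muscle markers summed to 40.4 to 87.1 FPKM in Young Sham and 17.3 to 46.4 in Young Bleo. They summed to 12.0 to 17.9 in Aged Bleo and 26.7 to 42.0 in Aged Sham. DESeq2 called 6 of the 7 lower in Aged Bleo against Young Sham, where 3.14% of genes tested were lower. In bulk samples a change in the number of cells of a type and a change in RNA per cell cannot be told apart. Ddx3y, a gene of the Y chromosome, had 1199 to 4912 counts in every library and Xist at most 23, although the methods describe mice of both sexes.

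At baseline the family covered a wide range of levels. On the FPKM scale, which is per length, Young Sham ECs held S100a16 at 135 ± 9.08 (SD, n = 5), S100a11 at 102 ± 11.8 (SD, n = 5), S100a13 at 90.9 ± 8.06 (SD, n = 5) and S100a1 at 63.8 ± 9.53 (SD, n = 5). S100a10 stood at 40.5 ± 2.05 (SD, n = 5) and S100a6 at 21.0 ± 2.67 (SD, n = 5). S100a4, a gene of migrating and fibroblastic cells, reached only 1.62 ± 0.278 (SD, n = 5), S100a9 0.122 ± 0.217 (SD, n = 5) and S100a8 0.0673 ± 0.0616 (SD, n = 5). The libraries of S100a11 and S100a13 overlapped in this order, as did those of S100a9 and S100a8, and the other neighbours in the order did not.

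**Figure D1:**
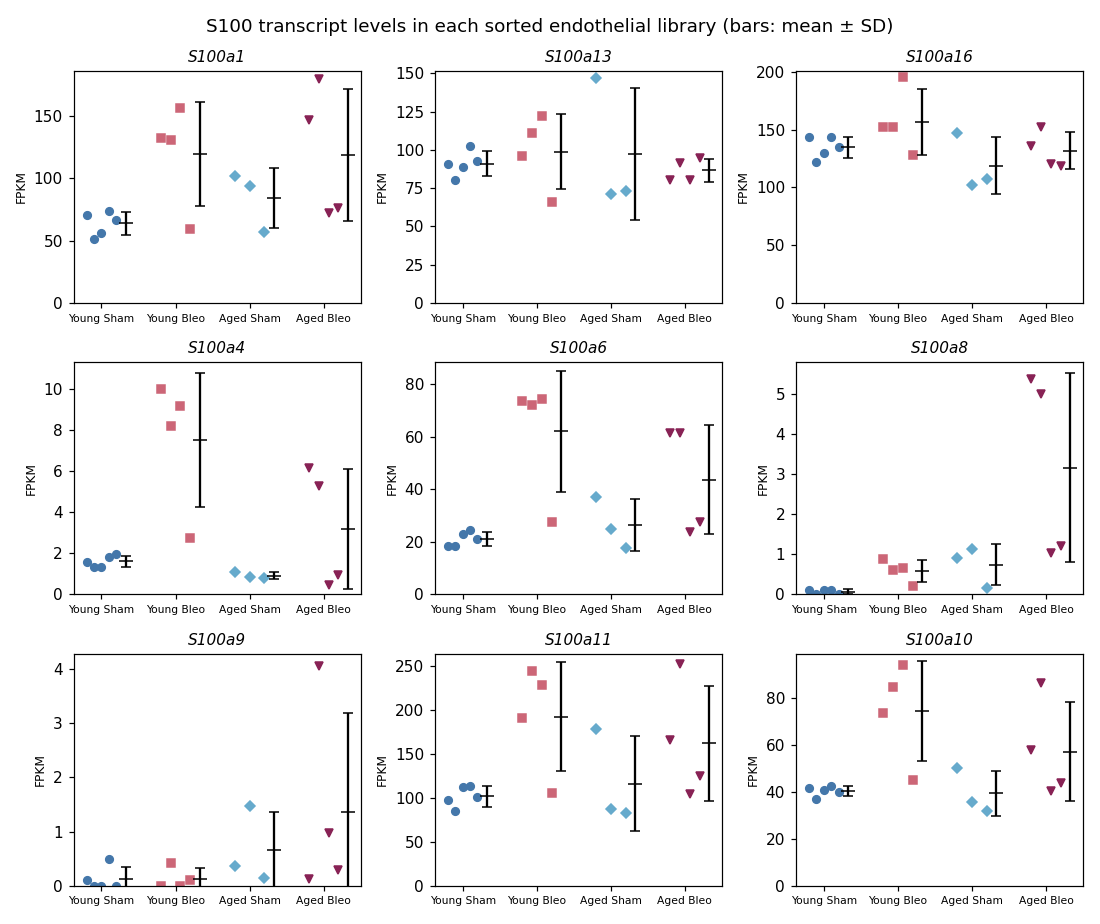
FPKM (y axis, linear, starting at 0) of the 9 S100 members in chromosomal order, with 1 point per library in each of the 4 groups and the mean ± SD beside them. S100a1, S100a4, S100a6, S100a10 and S100a11 are high in 3 of 4 Young Bleo libraries and in 2 of 4 Aged Bleo libraries, while S100a13 and S100a16 overlap between all groups.

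Bleomycin in young mice moved most of the family upward. Of the 9 members, 6 rose in Young Bleo against Young Sham and none fell, where 7.57% of all 18515 genes tested rose. A gene counted as changed when DESeq2 on the deposited counts gave it a Benjamini-Hochberg adjusted p no higher than 0.05 and a log2 fold change no closer to 0 than 0.5. The members that rose were S100a1, S100a4, S100a6, S100a8, S100a10 and S100a11, and the median log2 fold change over the 9 was 0.89 beside 0.01 over all genes tested. With edgeR's quasi-likelihood test, by which 5.69% of genes rose, 4 of the 6 were called, and S100a1 and S100a11 missed the threshold. The calls of S100a1 and S100a11 were each lost in 7 of 9 fits with a library left out, that of S100a10 in 2 of 9 (without Young Bleo 18 or 19), and the count of members called fell to 3 without Young Bleo 18 or 19. By limma on log2(FPKM + 0.1) and log2(FPKM + 1) it was 1 and 2, where 3.47% and 2.35% of genes tested rose.

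S100a4 changed most among the 7. Its FPKM was 1.59, 1.34, 1.35, 1.84 and 1.96 in Young Sham and 9.999, 8.20, 9.17 and 2.75 in Young Bleo 17, 18, 19 and 20. The groups did not overlap, as was the case with higher values for 7.62% of genes tested. S100a4 rose with a log2 fold change of 2.20 ± 0.59 (SE, DESeq2 adjusted p = 0.00268, edgeR adjusted p = 0.0280).

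S100a6 (calcyclin) lies 6.85 kb downstream of S100a4. Its FPKM was 18.5, 18.3, 23.0, 24.3 and 21.1 in Young Sham and 73.7, 72.2, 74.6 and 27.7 in Young Bleo. The values of 3 Young Bleo libraries thus lay within a narrow band and Young Bleo 20 lay close to the sham range. S100a6 rose with a log2 fold change of 1.54 ± 0.36 (SE, DESeq2 adjusted p = 0.000435, edgeR adjusted p = 0.0118).

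S100a10, the light chain of the annexin A2 complex, and S100a11, a partner of annexin A1, rose by less. S100a10 had an FPKM of 41.6, 37.2, 41.1, 42.5 and 39.9 in Young Sham and 73.8, 84.8, 94.3 and 45.2 in Young Bleo, and its log2 fold change was 0.86 ± 0.27 (SE, DESeq2 adjusted p = 0.0137, edgeR adjusted p = 0.0402). S100a11 had an FPKM of 97.5, 84.8, 112, 114 and 101 in Young Sham and 191, 244, 228 and 105 in Young Bleo, with a log2 fold change of 0.90 ± 0.33 (SE, DESeq2 adjusted p = 0.0405, edgeR adjusted p = 0.0794). Only the normalized value of Young Bleo 20 overlapped the sham range for either gene.

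S100a1, best known from the contractile cells of the heart, had an FPKM of 70.8, 51.6, 56.3, 73.9 and 66.3 in Young Sham and 132, 131, 156 and 59.1 in Young Bleo. It was called at the edge of the threshold, with a log2 fold change of 0.89 ± 0.33 (SE, DESeq2 adjusted p = 0.0495, edgeR adjusted p = 0.0909). S100a13, which takes part in the release of growth factors that lack a signal sequence, had a log2 fold change of 0.10 (95% interval -0.38 to 0.58, DESeq2 adjusted p = 0.859). S100a16 had one of 0.20 (95% interval -0.16 to 0.55, DESeq2 adjusted p = 0.539). These intervals leave out changes as large as the estimates of S100a4, S100a6, S100a10, S100a11 and S100a1.

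**Figure D2:**
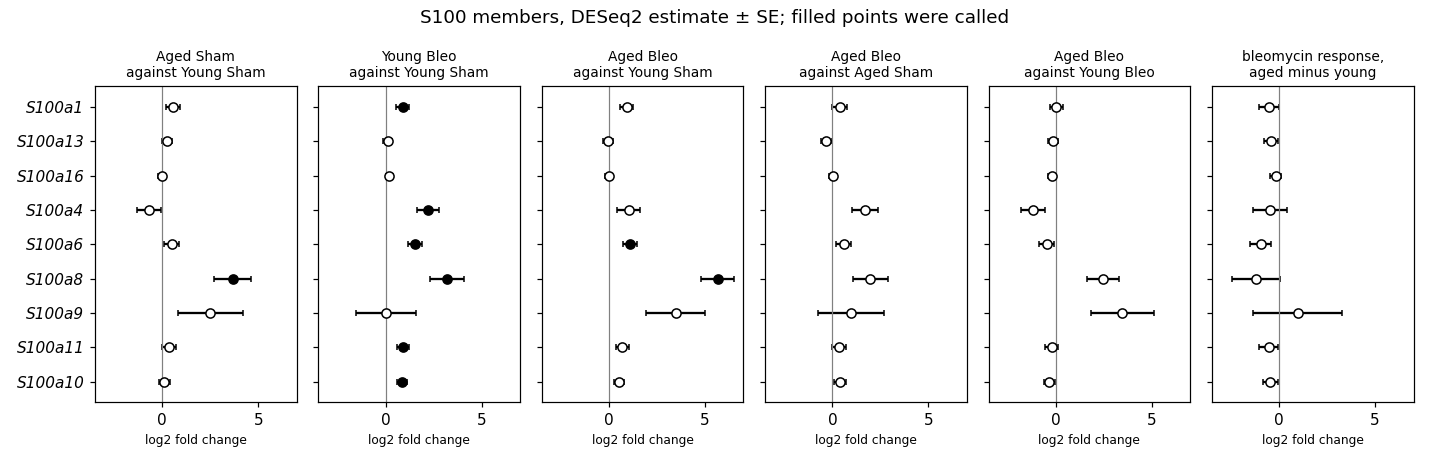
DESeq2 log2 fold change ± SE (x axis) of each S100 member (y axis, chromosomal order) in 5 pairwise comparisons and in the difference of the bleomycin responses, with filled points for members that were called. Young Bleo against Young Sham has 6 filled points, Aged Bleo against Young Sham has 2, Aged Sham against Young Sham has 1 and the other 3 panels have none.

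Age without injury left the 7 members outside the S100a8 and S100a9 pair without a call. In Aged Sham against Young Sham 1 of the 9 members rose, S100a8, where 2.24% of genes tested rose, and none fell. S100a8 was not called there by edgeR (adjusted p = 0.102), by which 0.699% of genes rose, by either limma fit or in the fit of these groups alone. S100a4 had an FPKM of 1.10, 0.827 and 0.818 in Aged Sham, all under the lowest Young Sham library. On normalized counts, 3.78% of genes tested shared this order, and for S100a4 it was narrow (75.9 in Aged Sham 13 beside 76.6 in Young Sham 22). The log2 fold change of S100a4, -0.69 ± 0.65 (SE), did not pass the test (DESeq2 adjusted p = 0.680). S100a13 spread from 71.3 to 147 FPKM and S100a11 from 82.7 to 178 FPKM in Aged Sham, and Aged Sham 13 was the highest library in each case.

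In aged mice the bleomycin libraries divided. Against Young Sham, 2 members rose in Aged Bleo, S100a6 and S100a8, where 6.58% of genes tested rose. S100a6 had an FPKM of 61.5, 61.5, 23.7 and 27.6 in Aged Bleo 1, 2, 3 and 5, so that 2 libraries lay well above the Young Sham range and 2 lay at or just above its upper end. Its log2 fold change was 1.07 ± 0.36 (SE, DESeq2 adjusted p = 0.0311, edgeR adjusted p = 0.0815), and edgeR, by which 4.2% of genes rose, called S100a8 alone. The S100a6 call was also lost in 6 of 9 fits with a library left out, with adjusted p-values of up to 0.208. S100a4 was likewise high in Aged Bleo 1 and 2, at 6.15, 5.30, 0.445 and 0.947 FPKM, with a log2 fold change of 1.02 ± 0.59 (SE, DESeq2 adjusted p = 0.296).

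S100a1 had an FPKM of 147, 180, 72.5 and 76.3 in Aged Bleo and a log2 fold change against Young Sham of 0.92 ± 0.33 (SE, DESeq2 adjusted p = 0.0523). S100a10 stood at 57.8, 86.7, 40.4 and 43.9 FPKM and S100a11 at 166, 252, 104 and 125 FPKM, and neither passed the test. Aged Bleo 1 and 2 were the 2 highest libraries of their group for S100a1, S100a4, S100a6, S100a8, S100a10, S100a11 and S100a16.

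Those 2 libraries also carried the highest macrophage marker sums, 1575 and 904 FPKM beside 373 and 212 in Aged Bleo 3 and 5. The part of macrophage RNA in the S100 values was not tested. The 7 fibroblast markers, cells known for S100a4, summed to 15.96 to 35.8 FPKM in Young Sham, 18.6 to 31.5 in Young Bleo, 9.73 to 14.4 in Aged Bleo and 17.4 to 40.8 in Aged Sham. With Aged Bleo 1 and 2 left out, an alternative added after seeing the data, S100a6 had a log2 fold change of 0.25 (adjusted p = 0.887) and S100a4 one of -1.26 (adjusted p = 0.180) against Young Sham. Both libraries were the highest of their group for these genes, so leaving them out had to lower the values, and nothing is read from it about S100a4 and S100a6. S100a8, for which they were also the highest, was still called at 4.08 (adjusted p = 0.0130).

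The comparison of Aged Bleo with Aged Sham asks what injury changed within aged mice. None of the 9 members was called, where 5.85% of genes tested were called in either direction, and 2 members had an unadjusted DESeq2 p under 0.05. These were S100a4, with a log2 fold change of 1.71 ± 0.67 (SE, DESeq2 unadjusted p = 0.0111), and S100a8, with 1.98 ± 0.89 (SE, DESeq2 unadjusted p = 0.0259). edgeR also called none, where 0.797% of genes tested were called by it. The median log2 fold change over the 9 was 0.41 beside 0.01 over all genes tested. With a library left out, S100a4 ran from 1.22 (adjusted p = 0.442) without Aged Bleo 1 to 2.08 (adjusted p = 0.00822) without Aged Bleo 3, and it passed the test only without Aged Bleo 3 or Aged Bleo 5.

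Aged Bleo against Young Bleo called 0 of the 9, where 0.99% of genes tested were called. edgeR called 0 as well, where only 0.0437% of genes passed by it. So few genes passed either test that these counts say little about the members. S100a8 (2.47 ± 0.82 (SE)) and S100a9 (3.47 ± 1.62 (SE)) had an unadjusted p under 0.05, at 0.00268 and 0.0322. Fitted on these 2 groups alone, S100a8 was called at 2.46 (DESeq2 adjusted p = 0.0346). The bleomycin response of aged mice minus that of young mice asks directly whether age altered the response. DESeq2 called none of the 9, where 0.378% of genes tested were called. edgeR called none either, where 0.00546% of genes passed by it. With so few genes passing, neither count says anything about the members. By DESeq2, no member had an unadjusted p under 0.05. The estimates were below 0 for 8 of the 9, with a median of -0.49 beside 0.01 over all genes tested. Members moved together from library to library, so nothing is read from this count of signs. The lowest unadjusted p was that of S100a6, with -0.96 (95% interval -2.02 to 0.11, DESeq2 adjusted p = 0.707).

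The pair S100a8 and S100a9 was read at low counts, and S100a8 changed in more comparisons than any other member. S100a8 had 5, 0, 2, 4 and 0 reads in Young Sham and 40, 23, 24 and 10 in Young Bleo. Aged Sham libraries had 21, 43 and 7 reads and those of Aged Bleo 272, 290, 66 and 58. Every library of the 3 other groups lay above every Young Sham library after normalization, which held for 7.62% of genes tested in Young Bleo, 5.82% in Aged Bleo and 4.95% in Aged Sham. The log2 fold change against Young Sham was 3.18 ± 0.89 (SE, DESeq2 adjusted p = 0.00477, edgeR adjusted p = 0.0435) in Young Bleo and 5.65 ± 0.88 (SE, DESeq2 adjusted p = 3.19e-08, edgeR adjusted p = 0.00493) in Aged Bleo. For Aged Sham it was 3.67 ± 0.95 (SE, DESeq2 adjusted p = 0.00778, edgeR adjusted p = 0.102).

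Those folds start from 11 reads over all of Young Sham. The ratio of pooled reads to Young Sham, corrected for library size, was 9.47 in Young Bleo (95% interval 5.07 to 19.6, counting error only), 52.3 in Aged Bleo (29.0 to 105) and 12.2 in Aged Sham (6.40 to 25.5). The Aged Sham call rested on Aged Sham 14, without which the log2 fold change was 3.21 and the adjusted p 0.101. Aged Sham 14 also held the highest summed platelet markers of all libraries, 3160 FPKM beside 58.9 to 885 in the others. Its macrophage sum was 187 FPKM beside 53.9 and 56.8 in Aged Sham 13 and 15, its pan-leukocyte sum 50.4 beside 22.6 and 15.7, and its neutrophil sum 2.89 beside 2.05 and 1.05. The part of these cells in its S100a8 value was not tested.

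S100a9 had 6, 0, 0, 24 and 0 reads in Young Sham and 0, 21, 0 and 7 in Young Bleo. Aged Sham libraries had 11, 74 and 9 reads and those of Aged Bleo 8, 313, 83 and 19. It was not called in any comparison, and its groups overlapped throughout. Aged Bleo 1 held 272 reads of S100a8 but 8 of S100a9, whereas Aged Bleo 2 held 290 and 313. The log2 fold change of S100a9 in Aged Bleo against Young Sham was 3.48 ± 1.54 (SE, DESeq2 adjusted p = 0.136), and with a library left out it ran from 1.82 (adjusted p = 0.666) without Aged Bleo 2 to 5.66 (adjusted p = 0.00892) without Young Sham 24, the only such fit that called it.

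Neutrophil markers were read at low levels. The summed FPKM of 15 such markers was 0.698 to 0.969 in Young Sham, 0.943 to 1.85 in Young Bleo, 1.33 to 3.13 in Aged Bleo and 1.05 to 2.89 in Aged Sham. Camp was at 0 reads in all 16 libraries, Mpo had at most 1 read, and Ly6g, which defines mouse neutrophils, reached at most 0.374 FPKM. Only 9 of the 15 had enough reads to be tested. Their median log2 fold change against Young Sham was 0.66 in Young Bleo, 1.80 in Aged Bleo and 1.45 in Aged Sham. Of the 9, 2 were called higher in Aged Bleo against Young Sham, Mmp8 and Mmp9, where 6.58% of genes tested rose, and edgeR called both. DESeq2 also called Mmp8 higher in Young Bleo against Young Sham, where 38 of the 41 Mmp8 reads of Young Bleo came from 1 library. It called Mmp9 higher in Aged Sham against Young Sham and in Aged Bleo against Young Bleo. edgeR called neither gene in these comparisons. Mmp8 and Mmp9 were picked out after their values were seen.

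Macrophage and pan-leukocyte markers moved with S100a8 in the bleomycin groups. In Aged Bleo against Young Sham 6 of 9 macrophage markers and 6 of 6 pan-leukocyte markers were higher, and in Young Bleo 5 of 9 and 3 of 6. In Aged Sham 0 of 9 macrophage markers and 5 of 6 pan-leukocyte markers were higher by DESeq2, and edgeR called none of either list there. Of all genes tested, 6.58% were higher in Aged Bleo, 7.57% in Young Bleo and 2.24% in Aged Sham, each against Young Sham by DESeq2. The gene most like S100a8 across the 16 libraries was Cd14, a co-receptor of Tlr4 on monocytes and macrophages, with a Pearson r of 0.965 on log2 normalized counts. Whether S100a8 came from ECs or from leukocytes in the sorted fraction was not tested.

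**Figure D3:**
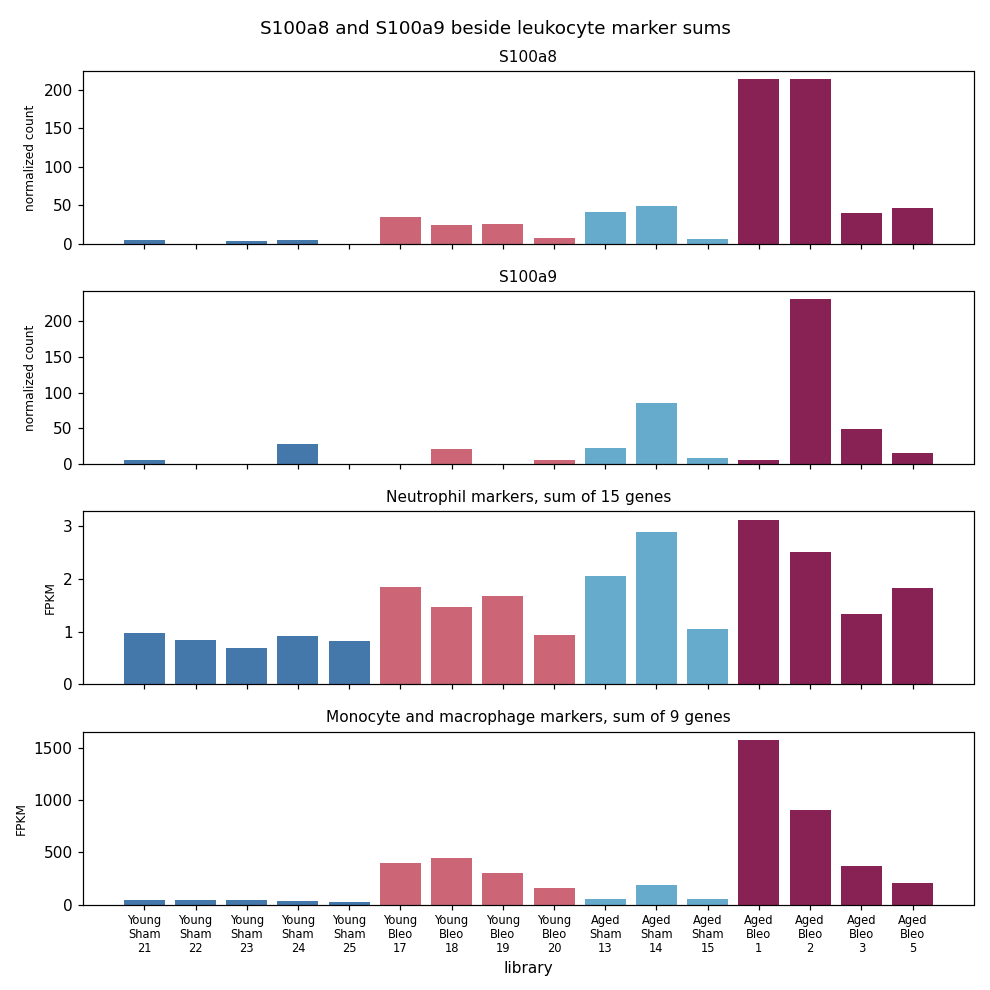
Bars give, for each of the 16 libraries (x axis, group and number), the normalized count of S100a8 and of S100a9 and the summed FPKM of the neutrophil and of the monocyte and macrophage markers (y axes, linear). S100a8 is highest in Aged Bleo 1 and 2, as is the macrophage sum, while S100a9 is high in Aged Bleo 2 and low in Aged Bleo 1, and the neutrophil sum is at most 3.13 FPKM.

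The genes with which these proteins work were read from lists. Of 18 annexins and intracellular partners, 6 rose and 1 fell in Young Bleo against Young Sham, 3 rose in Aged Bleo against Young Sham, 1 rose in Aged Bleo against Aged Sham and none was called in the other comparisons. The gene called in Aged Bleo against Aged Sham was Plat (log2 fold change 1.29 ± 0.35 (SE), DESeq2 adjusted p = 0.00816). Its edgeR adjusted p was 0.0733, above the threshold, and 0.448% of genes rose there by edgeR. Of all genes tested, 7.57% rose and 6.35% fell in Young Bleo, and 6.58% rose and 3.14% fell in Aged Bleo, each against Young Sham. In Aged Bleo against Aged Sham, 3.40% rose. Plat, the tissue plasminogen activator whose work on the cell surface the S100A10 complex aids, rose by 1.52 ± 0.31 (SE, log2 scale) for Young Bleo and 1.88 ± 0.31 (SE) for Aged Bleo, each against Young Sham. Anxa2 rose by 1.36 ± 0.30 (SE) and 1.32 ± 0.30 (SE), and Anxa1 rose in both as well, by 1.17 and 1.13. Il1a, an interleukin that is released together with S100A13, fell in Young Bleo with -1.81 ± 0.58 (SE) by DESeq2 (adjusted p = 0.0166), and edgeR did not call it (adjusted p = 0.0860).

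Ahnak, a scaffold of the S100A10 complex, rose in Young Bleo with 0.93 ± 0.23 (SE) and had 0.61 ± 0.23 (SE, DESeq2 adjusted p = 0.0663) in Aged Bleo against Young Sham. Cacybp, the partner of S100A6, was not called in any comparison, with log2 fold changes of 0.13 in Young Bleo and 0.25 in Aged Bleo against Young Sham.

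Of 10 receptor and signalling genes, 3 rose and 1 fell in Young Bleo, and 2 rose and 1 fell in Aged Bleo, each against Young Sham. Of all genes tested, 7.57% rose and 6.35% fell in Young Bleo, and 6.58% rose and 3.14% fell in Aged Bleo. By edgeR, 2 rose in Young Bleo, where Emb was not called (adjusted p = 0.0875). In Aged Bleo against Aged Sham DESeq2 called 1 higher, Cd14 (log2 fold change 1.69, adjusted p = 0.0111), where 3.40% of genes tested rose, and edgeR none. Cd14 rose by 1.86 and 3.12, and Emb, a receptor of the S100A8 and S100A9 complex, rose by 0.93 and 1.67. Ager fell by 1.32 and 1.48 on the log2 scale, from 7.37 to 15.0 FPKM in Young Sham to 2.46 to 8.52 in Young Bleo and 1.502 to 6.40 in Aged Bleo. Ager is chiefly a gene of alveolar epithelium. A list of 10 general epithelial markers, which holds airway genes as well as alveolar ones, summed to 63.3 to 565 FPKM in Young Sham, 152 to 552 in Young Bleo and 169 to 430 in Aged Bleo. The part of alveolar epithelial RNA in the values of Ager was not tested. Tlr4 was not called, with log2 fold changes of 0.10 and 0.19.

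Other S100 genes were scarce. Of 9 in the table, 4 had enough reads to be tested against Young Sham and 1, S100b, rose in Young Bleo, with 2.90 ± 1.09 (SE, DESeq2 adjusted p = 0.0491, edgeR adjusted p = 0.124). Of all genes tested, 7.57% rose there. The FPKM of S100b was at most 0.140 in Young Sham and 0.178 to 0.494 in Young Bleo.

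Neighbours and partners were then set against each other within libraries, in 10 tests chosen after the values were seen. The FPKM ratio of S100a1 to S100a13, which share a start region, was 0.633 to 0.782 in Young Sham, 0.895 to 1.38 in Young Bleo, 0.809 to 1.97 in Aged Bleo and 0.695 to 1.32 in Aged Sham. Both bleomycin groups lay above Young Sham without overlap, and the log2 ratio was 0.74 higher for Young Bleo and 0.87 higher for Aged Bleo (two-sided exact permutation p = 0.0159 each, the smallest that 4 against 5 libraries allow, and 0.0529 after adjustment over the 10 tests). Aged Bleo 1 and 2, with ratios of 1.84 and 1.97, set the size of the latter.

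The FPKM ratio of S100a10 to Anxa2 was 0.474 to 0.683 in Young Sham, 0.323 to 0.498 in Young Bleo, 0.241 to 0.474 in Aged Bleo and 0.306 to 0.818 in Aged Sham. Against Young Sham the log2 ratio was lower, by -0.52 in Young Bleo (exact permutation p = 0.0317, adjusted 0.0794) and by -0.73 in Aged Bleo (exact permutation p = 0.0159, adjusted 0.0529). Neither passed 0.05 after adjustment. The other 6 tests, of both ratios in the remaining comparisons, gave exact permutation p-values of 0.250 to 0.771.

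**Figure D4:**
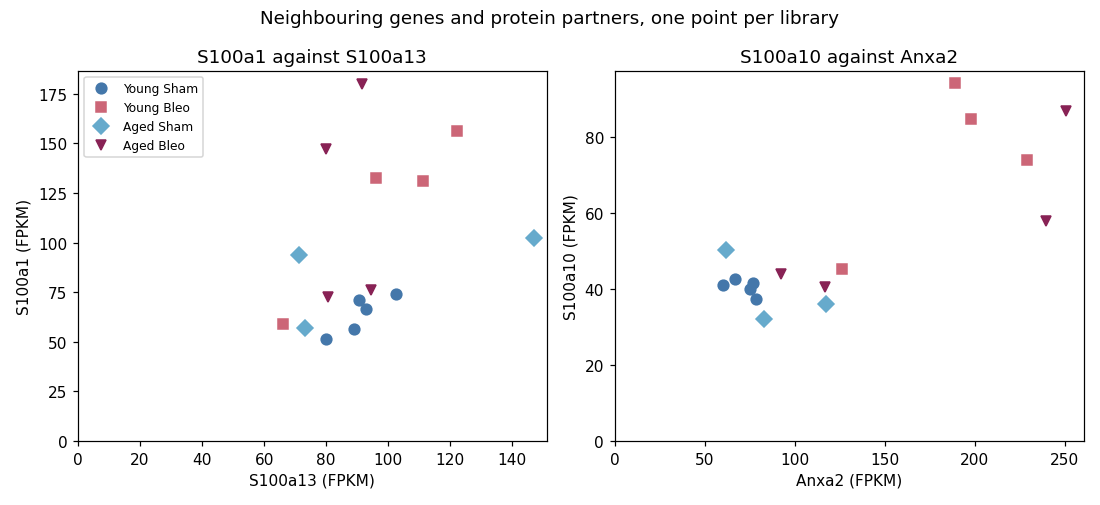
FPKM of S100a1 against S100a13 (left) and of S100a10 against Anxa2 (right), both axes linear and starting at 0, with 1 point per library and a symbol per group. Most bleomycin libraries lie further along the S100a1 axis than Young Sham libraries at a like level of S100a13, and Anxa2 reaches 251 FPKM while S100a10 reaches 94.3.

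Levels of several members moved together from library to library. With group means removed, the Pearson r of log2 normalized counts over the 16 libraries was 0.97 for S100a10 with S100a11, 0.95 for S100a1 with S100a6 and 0.93 for S100a6 with S100a10. The value for S100a8 with S100a9 was 0.33. These points share library and depth and are a description. Among 13773 genes compared, S100a11 was the second most similar to S100a10.

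The genes most like the members included ribosomal protein genes. For S100a11 they were Rps16, Rps24 and Rpl9 (Pearson r of 0.986, 0.981 and 0.978), for S100a6 Trim37, Rps6 and its pseudogene Rps6-ps4, for S100a10 H2afz, S100a11 and Rps3, and for S100a13 Edf1, Chchd1 and Rpl27a. Those of S100a1 were Cystm1, Ifitm3 and Ptms, those of S100a16 Tm2d3, Prdx2 and Med8, and those of S100a4 Rhoj, Ppic and Kdelr3. S100a8 was followed after Cd14 by Cotl1 and Ifi27l2a, and S100a9 by Hist2h3c1, Gm20634 and Ctif.

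The 81 ribosomal protein genes took 1.27% to 1.34% of counts in Young Bleo 17, 18 and 19, 1.08% and 1.35% in Aged Bleo 1 and 2, and 1.35% in Aged Sham 13, beside 0.599% to 0.942% in the other 10 libraries. Within both bleomycin groups, the libraries with the larger share were also those with more S100a1, S100a6, S100a10 and S100a11. The order differed for S100a13 and S100a9 in Aged Bleo. There Aged Bleo 5 lay above Aged Bleo 1, at 94.3 beside 80.0 FPKM for S100a13 and 0.297 beside 0.119 FPKM for S100a9. In Aged Sham 13, S100a4 was the highest of its group at 1.10 FPKM, and it lay under all Young Sham libraries. S100 transcripts are short, as ribosomal protein transcripts are. Among 13774 genes whose mean normalized count was 50 or more, only 1.42% (S100a8) to 17.4% (S100a16) were no longer than the member in question. The median log2 deviation of 817 genes of at most 800 bases ran from -0.41 in Young Bleo 20 to 0.61 in Aged Sham 13.

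With an offset for gene length in each library, an alternative added after seeing the data and not tried on simulated counts, 5 of the 9 members rose in Young Bleo, where 7.75% of genes rose, and the call of S100a1 was lost (0.67, adjusted p = 0.0504). S100a4 stood at 1.97, S100a6 at 1.32, S100a8 at 2.99, S100a10 at 0.69 and S100a11 at 0.68. In Aged Bleo against Young Sham S100a6 and S100a8 were called (6.23% of genes rose), and in Aged Sham S100a8 (2.09%). Other properties of short transcripts were not tested.

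**Figure D5:**
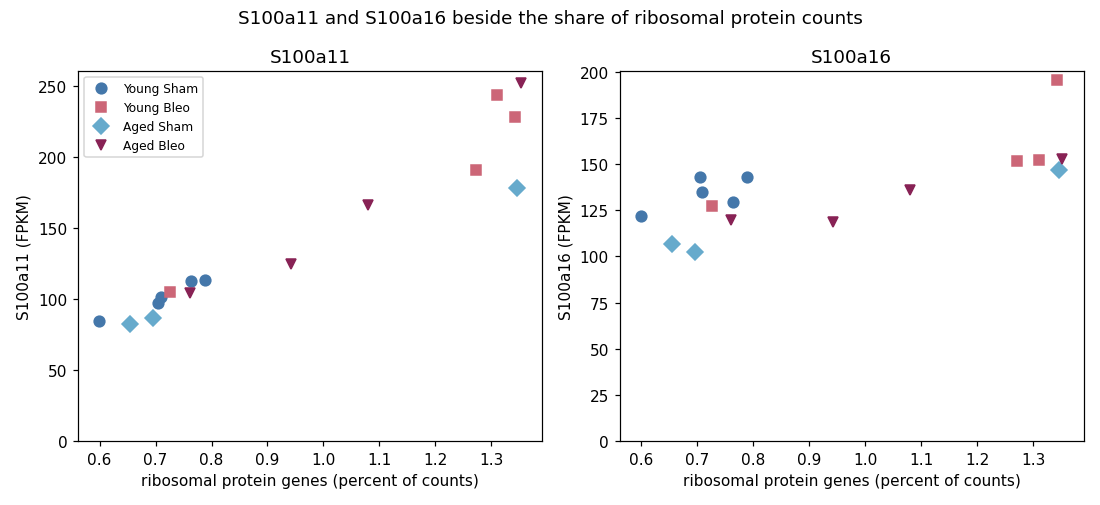
FPKM of S100a11 (left) and S100a16 (right) on linear y axes from 0, against the percent of a library's counts on 81 ribosomal protein genes (x axis), with 1 point per library and a symbol per group. S100a11 spans 82.7 to 252 FPKM and S100a16 spans 102 to 196 FPKM over shares of 0.599% to 1.35%, and S100a11 is higher where the share is higher.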

How the data were processed

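RNA of sorted lung ECs was sequenced in 16 libraries. Per the labels and the study's methods, the authors aligned reads with STAR (2.5.2b) to mm10 and counted them per gene with featureCounts of Subread, inside the MAPRSeq pipeline. Strand setting, annotation release and the handling of multi-mapping reads are not given in the sources used here. Labels and methods differ on the library kit (SMART-Seq v4 with Nextera in the former, TruSeq with poly(A) selection in the latter). The deposited table holds raw counts, used for every test, and FPKM values that the authors scaled by gene length and library total, used for levels. Total counts were 20.9 to 71.0 mega-counts per library. Replicates of a group differed by more than sampling noise in all 25 pairs (chi-square per degree of freedom of at least 35.1).

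Genes were tested with DESeq2 (1.42.0, R 4.3.3), the tool named by the study, in 1 model over all libraries and genes with group as its term. The threshold was an adjusted p (Benjamini-Hochberg) no higher than 0.05 with a log2 fold change of 0.5 or more in either direction. Fold changes are unshrunken. The 6 contrasts were 5 pairwise comparisons and the difference of the bleomycin responses. Alternatives were edgeR's quasi-likelihood test (4.0.16), TMM sizes, filters on low counts, limma (3.58.1) on log2(FPKM + 0.1) and log2(FPKM + 1), the compared groups alone and each library left out in turn. DESeq2 and edgeR were tried on simulated counts, whereas limma and a gene-length offset added after seeing the data were not. Ratios within libraries were put to exact permutation tests (two-sided). Intervals on pooled reads cover counting error only. The members and lists were chosen with earlier results of these data known. All 9 members were named in each comparison. From the S100, partner and receptor lists up to 3 called genes with the largest change per comparison were named, plus Anxa2, Ahnak, Cacybp, Ager and Tlr4, and likeness was the 3 highest Pearson correlations. Promoter sequences are those of RefSeq.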

Additional observations from a re-analysis of the deposited data

Results flagged for a closer look

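In groups of 4 or 5 libraries, 27 combinations of member and group were examined for a library far from the others, where chance marks about 1 in 20. S100a6 in Young Bleo 20 had a normalized count of 1869, beside 5194 to 5564 in the other 3 libraries of the group, and the gap was 0.900 of the group's range. Young Bleo 20 also had the lowest macrophage marker sum of its group, 156 FPKM beside 305 to 445, and ribosomal protein genes took 0.725% of its counts beside 1.27% to 1.34%. The part of either in the S100a6 value was not tested. S100a9 in Young Sham 24 had a normalized count of 28.1, beside 0 to 5.66 in the other 4 libraries, and the gap was 0.798 of the range.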

How the results depend on the processing

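No paired analysis was possible because the library numbers do not repeat between groups. The S100a4, S100a6 and S100a8 calls in Young Bleo and the S100a8 call in Aged Bleo, each against Young Sham, kept their direction in all fits and were called by edgeR. Both limma fits called fewer than 3 members in Young Bleo, so not all of the S100a4, S100a6 and S100a8 calls held there. S100a10 in Young Bleo was also called by edgeR, and its call was lost in 2 of 9 fits with a library left out. The count of members called moved as follows. In Aged Sham against Young Sham it was 0 by edgeR, by both limma fits and in the fit of the compared groups alone, and 0 to 1 with a library left out. In Young Bleo against Young Sham it was 1 by limma on log2(FPKM + 0.1), 2 by limma on log2(FPKM + 1), and 3 to 6 with a library left out, 3 without Young Bleo 18 or Young Bleo 19. In Aged Bleo against Young Sham it was 1 by edgeR, by both limma fits and without Aged Bleo 1 and 2, and 1 to 3 with a library left out, 1 without Aged Bleo 1, Aged Bleo 2 or Young Sham 21, 22, 23 or 25. For Aged Bleo against Aged Sham it was 0 to 1 with a library left out, and in Aged Bleo against Young Bleo it was 1 in the fit of those groups alone and 3 without Aged Bleo 1 and 2. The difference of the responses called 2 members without Aged Bleo 1 and 2. Aged Bleo 1 and 2 were the highest of their group for 7 of the 9 members, so leaving them out lowers Aged Bleo by construction. The cause of the other changes was not tested.

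Directions turned only for values that were not called in the main comparison. In Aged Sham against Young Sham, the log2 fold change of S100a10 was -0.06 by both limma fits (-0.061 and -0.059) and -0.11 with the length offset, where S100a11 had -0.0078 and S100a13 -0.062, and with a library left out S100a10 ran from -0.15 to 0.28, S100a11 from -0.17 to 0.57, S100a13 from -0.24 to 0.45 and S100a16 from -0.27 to 0.070. In Young Bleo against Young Sham, the length offset gave S100a9 -0.028 and S100a13 -0.10, and with a library left out they ran from -1.86 to 2.19 and from -0.037 to 0.27. In Aged Bleo against Young Sham, S100a4 was at -1.26 without Aged Bleo 1 and 2, and with a library left out S100a13 ran from -0.13 to 0.0053 and S100a16 from -0.14 to 0.041. Within aged mice, leaving out Aged Bleo 1 and 2 gave S100a1 -0.37, S100a4 -0.57, S100a6 -0.24, S100a9 -0.24, S100a10 -0.088, S100a11 -0.21 and S100a16 -0.17, and with a library left out S100a9 ran from -0.69 to 2.33, S100a13 from -0.52 to 0.18 and S100a16 from -0.10 to 0.25. Between the bleomycin groups, S100a1 was at -0.033 by both limma fits and -0.71 without Aged Bleo 1 and 2, and ran from -0.29 to 0.22 with a library left out, where the log2 ratio of S100a1 to S100a13 ran from -0.084 to 0.34. In the difference of the responses, S100a8 was at 0.55 by limma on log2(FPKM + 1), S100a9 at -0.25 without Aged Bleo 1 and 2, and with a library left out S100a9 ran from -1.22 to 2.83, S100a13 from -0.62 to 0.075 and S100a16 from -0.30 to 0.054. Few reads limit S100a8 and S100a9, which had 11 and 30 in all of Young Sham.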
